A study of Mus musculus with 8 samples.

Results

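To look at how the liver's program of glucose production stood after long treatment with IXA4, a small molecule that activates IRE1/XBP1s signaling, 10 genes were taken by symbol from a table of 26166 genes: the enzymes and transporter of gluconeogenesis *Pcx*, *Pck1*, *Pck2*, *Fbp1*, *G6pc* and *Slc37a4*, and the regulators *Foxo1*, *Foxo3*, *Ppargc1a* and *Crtc2*. RNA-seq was done on livers of 4 IXA4-treated and 4 vehicle-treated mice. All 8 were diet-induced obese (DIO) male C57BL/6N mice, bought at 14 weeks of age and fed a diet with 60% of its calories from fat for 3 weeks before dosing. IXA4 mice received 50 mg/kg of IXA4 once a day by intraperitoneal injection, and vehicle mice received the same mixture without compound (10% DMSO, 30% Kolliphor EL and ethanol, 60% saline), for 8 weeks. The samples are bulk liver RNA, there was no lean or chow-fed group, and the feeding state of these mice when the tissue was taken is not given in the sources used here.

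Gluconeogenesis makes glucose from lactate, amino acids and glycerol, mainly in hepatocytes. Pyruvate carboxylase makes oxaloacetate in mitochondria, a phosphoenolpyruvate carboxykinase turns it into phosphoenolpyruvate, fructose-1,6-bisphosphatase bypasses phosphofructokinase, and glucose-6-phosphatase releases free glucose in the endoplasmic reticulum, where its substrate is brought by the transporter encoded by *Slc37a4*. In fasting, glucagon acts through cAMP and the CREB coactivator CRTC2, which induces the coactivator PGC1α (encoded by *Ppargc1a*). FOXO1 and PGC1α raise *G6pc* and *Pck1* transcription, and insulin removes FOXO1 from the nucleus.

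The promoters of the 3 genes below are shown because FOXO1, cAMP and XBP1s are known to act through short DNA motifs and each of these windows holds one of those searched. Each is the 250 bases before the gene's RefSeq start (GRCm38.p6 sequence), read 5′ to 3′ on the strand of the gene, with the motif in capitals. By exact match they lie on NCBIM37 at chr11:101228780-101229029 (plus strand, *G6pc*), chr2:172978324-172978573 (plus strand, *Pck1*) and chr5:51958965-51959214 (minus strand, *Ppargc1a*). The GENCODE spans given below for *G6pc* and *Pck1* start inside these windows, so motif positions are counted from the RefSeq start only.
G6pc: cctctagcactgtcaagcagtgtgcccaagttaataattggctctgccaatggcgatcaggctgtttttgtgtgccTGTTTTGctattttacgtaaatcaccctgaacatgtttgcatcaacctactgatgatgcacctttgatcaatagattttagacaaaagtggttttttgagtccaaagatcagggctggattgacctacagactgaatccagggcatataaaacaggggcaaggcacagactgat
Pck1: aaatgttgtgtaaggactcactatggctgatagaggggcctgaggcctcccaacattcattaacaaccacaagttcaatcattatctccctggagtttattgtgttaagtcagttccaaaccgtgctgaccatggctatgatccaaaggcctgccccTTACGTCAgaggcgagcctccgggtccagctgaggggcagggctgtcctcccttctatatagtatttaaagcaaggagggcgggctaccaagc
Ppargc1a: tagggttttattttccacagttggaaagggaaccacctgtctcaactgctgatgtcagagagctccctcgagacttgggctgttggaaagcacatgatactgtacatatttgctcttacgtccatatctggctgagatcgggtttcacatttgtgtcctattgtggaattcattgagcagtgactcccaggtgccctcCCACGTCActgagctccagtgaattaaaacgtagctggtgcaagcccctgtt

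In *G6pc* the capitals mark TGTTTTG, a core of insulin response sequences through which FOXO proteins act, 174 to 168 bases before the start. In *Pck1* they mark TTACGTCA, the cAMP response element described for this gene, 93 to 86 bases before the start. In *Ppargc1a* they mark CCACGTCA, which is the reverse strand of TGACGTGG, a core bound by XBP1s and ATF6, 52 to 45 bases before the start. Among 32851 mouse promoter windows of 250 bases, searched on both strands, 5.56% held TGTTTTG, 0.447% held TTACGTCA and 0.563% held TGACGTGG. The *Pck2* window also held TGTTTTG, 159 to 153 bases before the start. No window of the 9 members with a RefSeq promoter (*Crtc2* was not matched) held the cAMP response element TGACGTCA (1.55% of all windows), the FOXO consensus GTAAACA (3.17%) or the ER stress response element (0.113%). A match is only a run of letters, and binding was not measured.

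Libraries held 16986915 to 18390185 counts in IXA4 livers and 17399049 to 17807573 counts in vehicle livers. After a filter on low counts 12427 genes were tested with edgeR's quasi-likelihood test, and all 10 members passed that filter. Of 5 IRE1/XBP1s target genes taken as a check of the treatment labels, 4 were higher in IXA4 livers (*Dnajb9*, *Sec24d*, *Sec23b* and *Hspa5*, log2 fold changes of 1.29 to 2.26), while *Xbp1* itself had a log2 fold change of 0.97 with an edgeR adjusted p of 0.0684. The paper describes *Hspa5* as mainly an ATF6 target that XBP1s induces to a lesser degree. No replicate pair was alike within sampling noise. Replicate numbers below are those of the table's columns. IXA4 liver 2 had the lowest level of the IXA4 livers for each of the 5 check genes. The p-values measure the spread between mice.

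Of the 10 members, *Foxo1* and *Ppargc1a* were lower in IXA4 livers and none was higher at an edgeR adjusted p under 0.05, in a table where 0.99% of the genes tested were called lower and 3.64% higher (4.63% in either direction). Without adjustment, 6 members were lower at p under 0.05 (*Pck1*, *Fbp1*, *G6pc*, *Foxo1*, *Foxo3* and *Ppargc1a*) and 0 higher, against 8.03% and 11.1% of all genes tested. In 3 members (*Fbp1*, *Foxo1* and *Ppargc1a*) every IXA4 liver lay below every vehicle liver, as in 5.24% of all genes tested, and in 0 members every IXA4 liver lay above (7.44% of all genes tested). The median log2 fold change of IXA4 over vehicle was −0.17 over the 6 enzyme and transporter genes and −0.51 over the 4 regulators, beside −0.01 over all genes tested. The 10 genes together took 0.365 to 0.426% of all counts in IXA4 livers and 0.456 to 0.549% in vehicle livers, without overlap. Most of these counts were of *Pck1*, *Fbp1* and *Pcx*, none of which passed the edgeR threshold. The total itself was not tested.

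**Figure D1:**
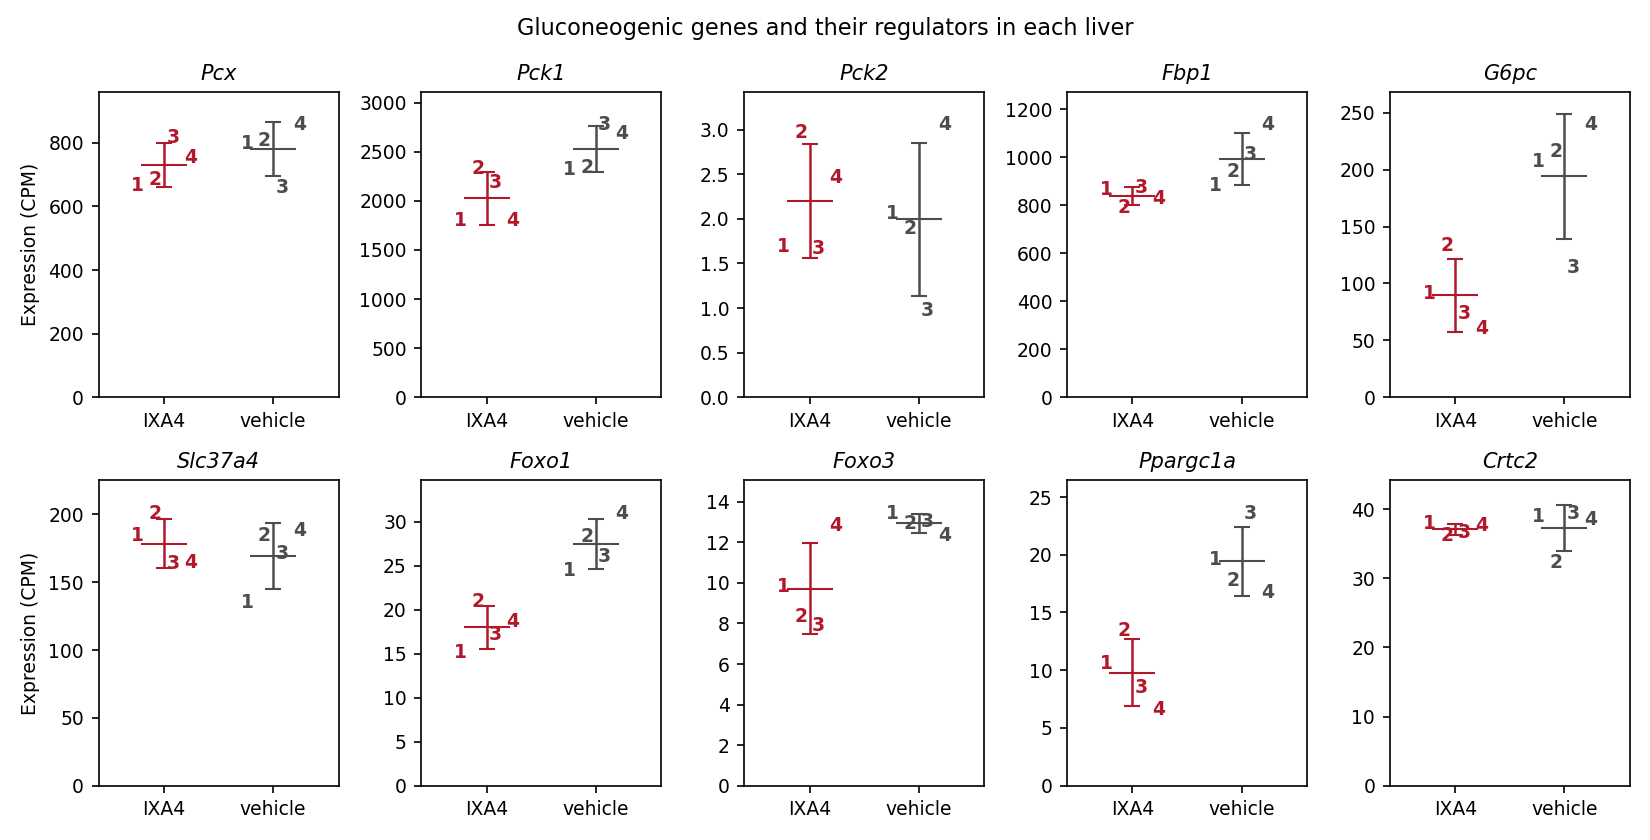
Expression of the 10 genes in CPM (counts scaled by library size; linear axes that start at 0) in each liver; digits are the replicate numbers of single livers (4 IXA4, left; 4 vehicle, right), long bars are means and whiskers are SD. IXA4 and vehicle livers do not overlap for Fbp1, Foxo1 and Ppargc1a, and for G6pc vehicle liver 3 (114.4 CPM) lies below IXA4 liver 2 (133.2 CPM).

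*Foxo1* (chr3:52072259-52154031, plus strand, NCBIM37 with GENCODE annotation, as for all positions below) encodes the insulin-restrained activator of *G6pc* and *Pck1*. Its mRNA was at 15.2, 21.0, 17.2 and 18.7 CPM (counts scaled by library size with TMM) in IXA4 livers, against 24.4, 28.4, 26.1 and 31.0 CPM in vehicle livers. All 4 IXA4 livers were below all 4 vehicle livers, and the means were 18.0 ± 2.45 and 27.5 ± 2.85 CPM (SD, n = 4 each). *Foxo1* fell by 0.61 on the log2 scale (SE 0.12, 95% interval −0.87 to −0.35; edgeR adjusted p = 0.0121), which is 0.656 of the vehicle level. It stayed past the threshold in all 15 alternative analyses, with adjusted p from 0.00043 to 0.0446.

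*Ppargc1a* (chr5:51845488-51958964, minus strand) encodes PGC1α, which coactivates FOXO1 and HNF4α on gluconeogenic promoters and also drives mitochondrial genes. It was at 10.6, 13.4, 8.48 and 6.63 CPM in IXA4 livers, against 19.6, 17.8, 23.6 and 16.8 CPM in vehicle livers. The groups were apart, with IXA4 liver 2 the highest of its group and vehicle liver 4 the lowest of its own. The mean was 9.79 ± 2.92 CPM in IXA4 livers and 19.4 ± 3.02 CPM in vehicle livers (SD, n = 4 each). *Ppargc1a* fell by 0.99 on the log2 scale (SE 0.19, 95% interval −1.41 to −0.57; edgeR adjusted p = 0.0133), to 0.504 of the vehicle level. It too passed in all 15 alternatives, with adjusted p from 0.000118 to 0.0457.

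*Foxo3* (chr10:41901647-41996561, minus strand), the paralog that shares FOXO binding sites, was at 9.83, 8.34, 7.91 and 12.8 CPM in IXA4 livers, against 13.4, 13.0, 13.0 and 12.3 CPM in vehicle livers. The vehicle livers lay close together, and IXA4 liver 4 was within their range while the other IXA4 livers were below it. With a log2 fold change of −0.41 (SE 0.15; edgeR adjusted p = 0.153), *Foxo3* did not pass. Without IXA4 liver 4 it was −0.57 with an adjusted p of 0.0211, and over all 15 alternatives the adjusted p ran from 0.0211 to 0.313. Per kilobase of exon, *Foxo1* exceeded *Foxo3* in every liver, by 2.01, 3.27, 2.82 and 1.90 times in IXA4 livers and by 2.36, 2.85, 2.60 and 3.26 times in vehicle livers.

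*Crtc2* (chr3:90058085-90068047, plus strand), whose product carries the cAMP signal to CREB, was at 37.9, 36.2, 36.6 and 37.6 CPM in IXA4 livers, against 38.9, 32.3, 39.4 and 38.5 CPM in vehicle livers. The IXA4 livers lay within the vehicle range only through vehicle liver 2, and were slightly below the other vehicle livers. Its log2 fold change was −0.01, and the 95% interval of the fold was 0.866 to 1.14 of the vehicle level. CRTC2 is controlled chiefly by phosphorylation, which RNA counts do not show.

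**Figure D2:**
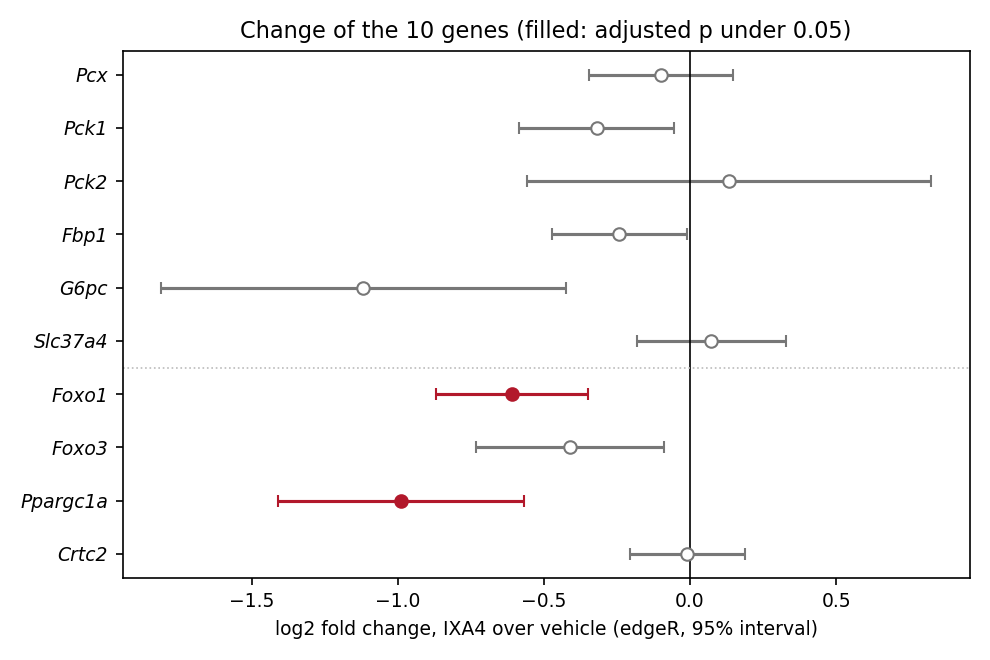
Log2 fold change of each gene, IXA4 over vehicle, from edgeR (points) with its 95% interval (bars); filled points passed an adjusted p of 0.05, and the dotted line separates enzymes and transporter (above) from regulators (below). G6pc has the lowest value (−1.12) with a wide interval, Ppargc1a and Foxo1 are the filled points, and the intervals of Pcx, Pck2, Slc37a4 and Crtc2 cross 0.

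None of the 6 enzyme and transporter genes passed the test with edgeR, while 3 were lower at an unadjusted p under 0.05 and 0 higher; DESeq2 called 1 (*G6pc*) lower and limma-voom called 0. *G6pc* (chr11:101228875-101239217, plus strand), the catalytic subunit of glucose-6-phosphatase, was at 91.0, 133.2, 73.8 and 60.0 CPM in IXA4 livers, against 206.8, 215.8, 114.4 and 239.6 CPM in vehicle livers. Vehicle liver 3 was well below the other vehicle livers and below IXA4 liver 2, so that the groups overlapped by this pair. The mean was 89.5 ± 31.8 CPM in IXA4 livers and 194.1 ± 54.9 CPM in vehicle livers (SD, n = 4 each). The fold was 0.461 (95% interval 0.285 to 0.745) and the log2 fold change −1.12 (SE 0.30), the 32nd lowest of 12427 genes, with an unadjusted p of 0.00586 and an edgeR adjusted p of 0.0858.

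The call of *G6pc* rested on single livers and on the model. Its edgeR adjusted p was 0.0229 without vehicle liver 3 (log2 fold change −1.29), 0.0239 without IXA4 liver 2 (−1.36) and 0.0292 without robust estimation of the dispersion, and 0.000309 with DESeq2. In the other 11 of 15 alternatives it did not pass, and the highest adjusted p was 0.193. The log2 fold change was between −1.36 and −0.97 in all 15.

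**Figure D3:**
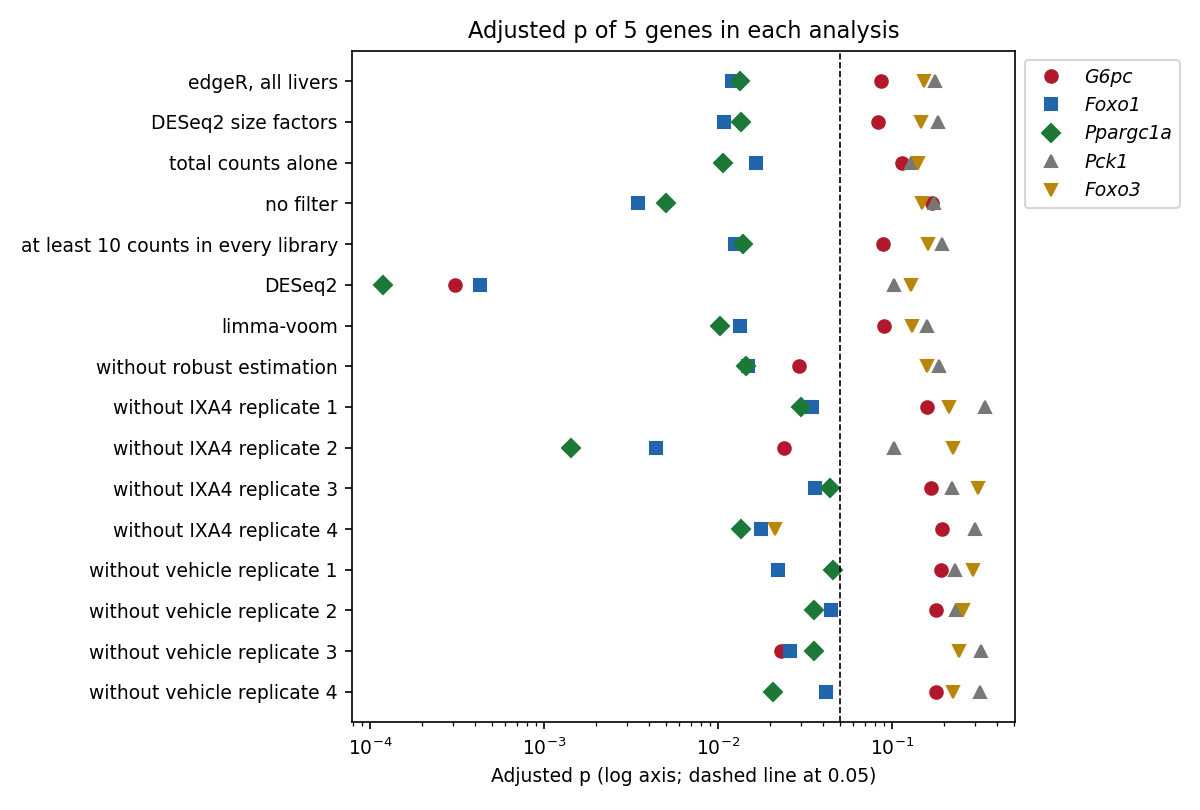
Adjusted p (log axis, dashed line at 0.05) of G6pc, Foxo1, Ppargc1a, Pck1 and Foxo3 with edgeR on all livers (top) and in each of 15 alternative analyses. Foxo1 and Ppargc1a lie left of the line in every analysis, G6pc in 4 of the 15 alternatives, Foxo3 in 1 and Pck1 in none.

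*Slc37a4* (chr9:44205182-44211046, plus strand) encodes the transporter that feeds glucose 6-phosphate to the *G6pc* product. It was at 184.8, 200.9, 163.8 and 164.2 CPM in IXA4 livers, against 134.9, 184.6, 171.0 and 188.1 CPM in vehicle livers. The groups overlapped widely, and the log2 fold change was 0.07 (95% interval −0.18 to 0.33; edgeR adjusted p = 0.786). The catalytic subunit and the transporter thus had different values in the same livers. Per kilobase of exon, the ratio of *G6pc* to *Slc37a4* was 0.496, 0.668, 0.454 and 0.368 in IXA4 livers, against 1.54, 1.18, 0.674 and 1.28 in vehicle livers. Vehicle liver 3 nearly met IXA4 liver 2 in this ratio, which was not tested.

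*Pck1* (chr2:172978549-172984774, plus strand) encodes the cytosolic phosphoenolpyruvate carboxykinase. It was at 1798, 2332, 2183 and 1803 CPM in IXA4 livers, against 2321, 2339, 2777 and 2688 CPM in vehicle livers. IXA4 liver 2 reached the 2 lower vehicle livers, and the other 3 IXA4 livers were below all vehicle livers. The fold was 0.802 (95% interval 0.667 to 0.963), with a log2 fold change of −0.32, an unadjusted p of 0.0219 and an edgeR adjusted p of 0.176. It passed in none of the 15 alternatives, where the adjusted p ran from 0.102 to 0.342. Vehicle liver 3, the lowest vehicle liver for *G6pc*, was the highest of all 8 for *Pck1*. IXA4 liver 2 was the highest IXA4 liver for both genes.

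*Pck2* (chr14:56159103-56168854, plus strand), the mitochondrial form, was near the limit of the assay with 30, 51, 29 and 45 counts in IXA4 livers, against 38, 34, 16 and 56 counts in vehicle livers. Its log2 fold change was 0.13. The 95% interval of the fold, 0.680 to 1.77, was wide and held both lower and higher levels. Per kilobase of exon *Pck1* exceeded it by 725.4 to 1303 times in IXA4 livers and by 872 to 2843 times in vehicle livers.

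*Fbp1* (chr13:62966113-62989642, minus strand), the liver fructose-1,6-bisphosphatase, was at 865.2, 789.3, 871.8 and 827.1 CPM in IXA4 livers, against 880.5, 938.9, 1012 and 1135 CPM in vehicle livers. Every IXA4 liver was below every vehicle liver, though IXA4 liver 3 and vehicle liver 1 were less than 10 CPM apart. *Fbp1* had a log2 fold change of −0.24 (95% interval −0.47 to −0.01; unadjusted p = 0.0415, edgeR adjusted p = 0.235), and passed in none of the alternatives.

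*Pcx* (chr19:4510472-4621752, plus strand), pyruvate carboxylase, was at 665.2, 683.3, 817.6 and 753.3 CPM in IXA4 livers, against 799.1, 808.1, 659.7 and 857.1 CPM in vehicle livers. The groups overlapped, with the lowest value of all in vehicle liver 3. The log2 fold change was −0.10 (95% interval −0.34 to 0.15; edgeR adjusted p = 0.694). On the RPKM scale, which divides CPM by exon length so that genes can be set beside each other, mean levels in IXA4 livers ran from *Pck1* (591.7) over *Fbp1* (492.5), *Pcx* (170.9), *Slc37a4* (73.4), *G6pc* (37.1), *Crtc2* (9.05), *Foxo1* (3.25), *Ppargc1a* (1.47) and *Foxo3* (1.35) to *Pck2* (0.647). In vehicle livers *Pck1* stood at 738.1, *Fbp1* at 582.6, *Pcx* at 182.8, *G6pc* at 80.4, *Slc37a4* at 69.8, *Crtc2* at 9.11, *Foxo1* at 4.95, *Ppargc1a* at 2.92, *Foxo3* at 1.79 and *Pck2* at 0.586. By these means *G6pc* and *Slc37a4* changed places, though in vehicle liver 3 *G6pc* was below *Slc37a4* (ratio 0.674), as in the IXA4 livers.

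No liver was the highest or the lowest of its group in all members, though some often were. Vehicle liver 4 was the highest of all 8 livers in 5 members, and IXA4 liver 2 the highest of its group in 6. Vehicle liver 3 was the lowest of all 8 in 2 members (*Pcx*, *Pck2*) and the highest in 3 (*Pck1*, *Ppargc1a*, *Crtc2*). The annotated spans of *Pcx*, *Fbp1* and *Foxo1* overlap a gene on the opposite strand (*Lrfn4*, *Gm17367* and RP24-337A16.1) and that of *Crtc2* overlaps *Gm10973* on the same strand. Only whole spans were compared, and whether exons overlap was not examined. Whether the counting used strand is not stated in those sources, so any reads of such neighbors cannot be told apart.

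The genes whose pattern over the 8 livers was nearest to a member's were found by the root mean square difference of log2 CPM deviations among 6005 genes, as a description. For *G6pc* they were *Tsc22d1* (0.17), *Gpc1* (0.20) and *Lamb3* (0.21), where the median over all genes was 0.71. *Tsc22d1* was at 8.65, 12.1, 9.74 and 5.92 CPM in IXA4 livers, against 19.8, 20.5, 11.6 and 21.2 CPM in vehicle livers. Vehicle liver 3 was the lowest vehicle liver for *Tsc22d1*, *Gpc1* and *Lamb3*, as for *G6pc*, which follows from choosing them by pattern. The nearest to *Pck1* were *Ntan1* (0.08), *Mtg1* (0.08) and *Psmd9* (0.09), with a median of 0.26. The nearest to *Foxo1* were *Slc43a3* (0.12), *Tgfbi* (0.13) and the matrix gene *Ltbp4* (0.13), with a median of 0.36.

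Lists of other genes of the pathway mostly gave no call. Among substrate entry genes 1 of 15 was lower and 0 higher, with a median log2 fold change of −0.18 and 14 of 15 values below 0. At an unadjusted p under 0.05, 4 were lower and 0 higher, and DESeq2 called 4 lower (*Gpd1*, *Tat*, and *Gpd2* and *Gpt2*, named after their values were seen). The gene called by edgeR was *Gpd1*, cytosolic glycerol-3-phosphate dehydrogenase, which brings glycerol carbon into the pathway and serves triglyceride synthesis too. *Gpd1* was at 180.9, 158.7, 185.3 and 148.7 CPM in IXA4 livers, against 248.3, 249.0, 233.0 and 282.5 CPM in vehicle livers. It fell by 0.59 on the log2 scale (SE 0.10; edgeR adjusted p = 0.00578), with no overlap, and passed in all 15 alternatives. *Tat*, tyrosine aminotransferase and a target of cAMP and glucocorticoids, had a log2 fold change of −0.42 (edgeR adjusted p = 0.103), with every IXA4 liver (819.6 to 1144 CPM) below every vehicle liver (1204 to 1610 CPM).

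Among 22 partner factors and repressors 1 was higher and 0 lower, with a median of −0.19, while 2 had a higher and 5 a lower level at p under 0.05 before adjustment. The gene called, by edgeR and by DESeq2, was *Foxa2*, a forkhead factor of hepatocytes, at 19.3, 16.6, 19.5 and 25.0 CPM in IXA4 livers, against 13.2, 12.8, 13.7 and 12.1 CPM in vehicle livers. *Foxa2* rose by 0.63 on the log2 scale (SE 0.13; edgeR adjusted p = 0.0139), all IXA4 livers being above all vehicle livers, but its adjusted p was 0.0509 without vehicle liver 2. *Creb3l3*, a membrane-bound factor of the fasting liver, had a log2 fold change of 0.03. Among 9 glucocorticoid response genes 1 was higher (*Lcn2*, log2 fold change 3.48, edgeR adjusted p = 0.0284) and 0 lower, while 1 was higher and 3 lower at an unadjusted p under 0.05 and DESeq2 also called *Tat* and *Tsc22d3* lower (*Tsc22d3*, a glucocorticoid target, is named after its values were seen). *Lcn2* is better known as an acute phase gene, and its adjusted p was 0.0593 to 0.0778 in 6 of the 8 fits that left out 1 liver.

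The steps shared with glycolysis (11 genes tested), the malate-aspartate and mitochondrial carriers (11), the paralogs of the members (9), other FOXO1 targets of liver (18), cAMP/CREB targets (13), the hormone receptors, kinases and phosphatases upstream (21) and the opposing glycolytic enzymes (13) held 0 edgeR calls. Their median log2 fold changes were −0.15, −0.16, −0.10, −0.02, 0.02, −0.06 and −0.14, in that order. At an unadjusted p under 0.05 they held 0, 0, 2, 2, 1, 0 and 2 higher genes and 1, 1, 0, 3, 2, 1 and 3 lower genes, in the same order. Limma-voom called none of them. DESeq2 called *Slc25a10* and *Tat* lower and *Slc37a1* and *Cdkn1b* higher among them, genes that are named here after their values were seen. For the lists from the carriers onward, the most abundant gene by CPM was *Mdh1* (log2 fold change 0.03), *Pprc1* (0.31), *Apoc3* (0.00), *Tat* (−0.42), *Gcgr* (−0.11) and *Gckr* (−0.19), in the same order. *Igfbp1*, a FOXO1 target chosen for mention after its values were seen, was at 22.8, 39.8, 109.4 and 24.8 CPM in IXA4 livers, against 65.9, 37.7, 25.4 and 63.0 CPM in vehicle livers, a wide overlap. Of the paralogs, *G6pc2* had no count in any library, and *Fbp2* and *Foxo6* did not reach the filter.

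**Figure D4:**
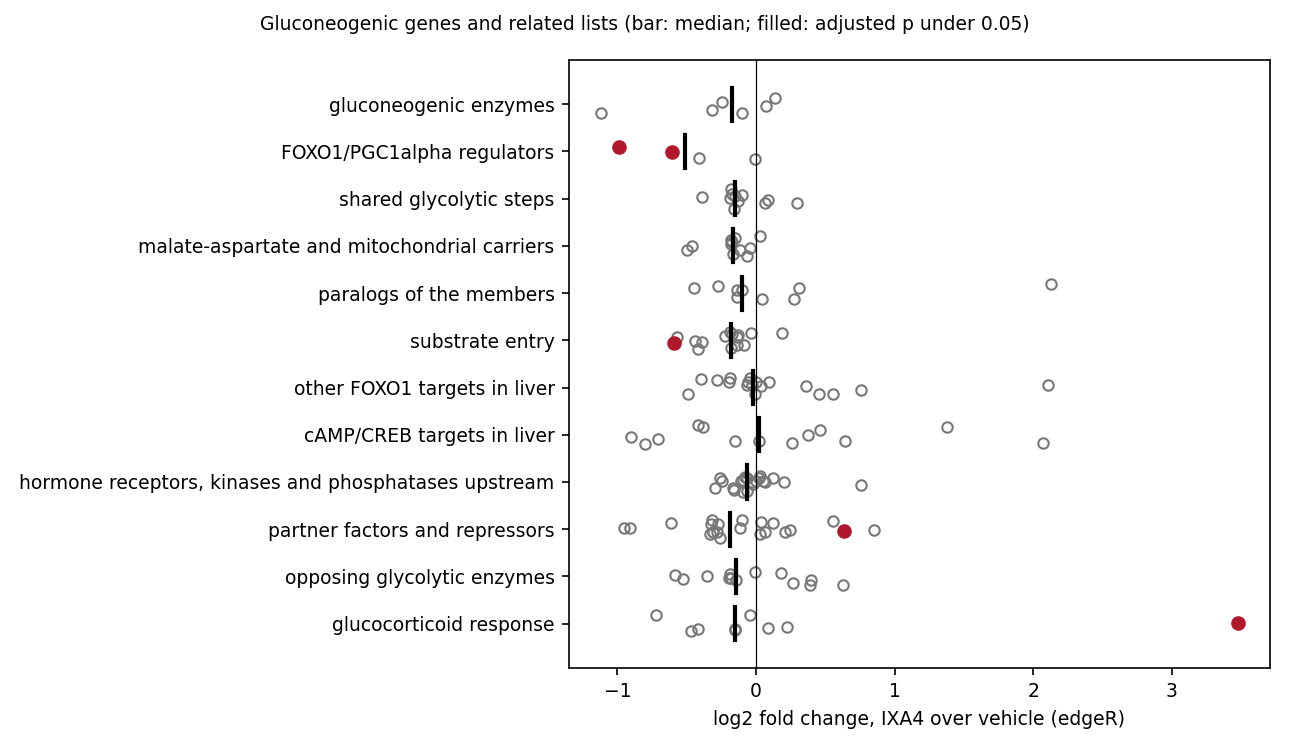
Log2 fold change, IXA4 over vehicle, of every tested gene in the member lists (top 2 rows) and in 10 lists of related genes (open circles; filled where the edgeR adjusted p is under 0.05; bars are medians; vertical scatter is arbitrary; Tat is in 3 lists). Foxo1 and Ppargc1a are filled among the regulators, and Gpd1, Foxa2 and Lcn2 are the only filled points in the lists of related genes.

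Markers of other cell types moved in part with treatment. In bulk tissue, fewer cells of a type and less RNA per cell cannot be told apart. None of the 8 hepatocyte and none of the 7 periportal hepatocyte markers passed with edgeR (at an unadjusted p under 0.05, 1 hepatocyte marker was higher and 1 lower and 0 periportal markers moved), and the summed periportal level was 2795 to 3218 CPM in IXA4 livers and 2903 to 3369 CPM in vehicle livers. All 6 sinusoidal endothelial markers had a log2 fold change below 0, with a median of −0.80 beside −0.61 for *Foxo1*. Of them 2 were lower with edgeR (*Kdr*, *Oit3*) and 0 higher, and 4 were lower at an unadjusted p under 0.05, their sum being 57.6 to 86.8 CPM in IXA4 livers and 77.2 to 136.2 CPM in vehicle livers. Of 7 stellate cell and fibroblast markers 3 were higher (*Col1a1*, *Col3a1*, *Acta2*) and 1 lower (*Reln*; sum 265.9 to 447.7 CPM in IXA4 livers, 183.3 to 257.8 CPM in vehicle livers), and of 5 cholangiocyte markers 2 were higher (*Krt19*, *Spp1*; sum 44.5 to 49.7 CPM in IXA4 livers, 25.9 to 31.1 CPM in vehicle livers). All 5 cholangiocyte markers had a log2 fold change above 0, and 4 were higher at an unadjusted p under 0.05. *Foxo1* is also expressed in endothelial cells, and the part of these cell types in the levels of *Foxo1* and *Ppargc1a* was not tested. Adipose tissue and kidney have *Pck1* of their own. The adipocyte genes *Adipoq* and *Lep* and the kidney genes *Slc34a1*, *Umod* and *Kap* had no count in any library. The summed adipocyte level was 8.93 to 25.1 CPM in IXA4 livers and 7.99 to 59.4 CPM in vehicle livers. The summed kidney level was 0.712 to 3.00 CPM in IXA4 livers and 0.424 to 0.611 CPM in vehicle livers. This kidney sum was almost all *Lrp2*, a gene named here after its values were seen. *Lrp2* did not pass with edgeR (log2 fold change 1.45, unadjusted p = 0.00666, adjusted p = 0.0929).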

How the data were processed

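Liver RNA was sequenced as single-end reads, and per the paper's methods alignment was to the NCBIM37 mouse assembly with DNAstar Lasergene software and ArrayStar with QSeq. The deposited count table holds raw aligned counts per gene symbol for 8 livers. How multiply aligned reads and strand were handled, and which annotation was used, is not given in the sources used here. A second deposited table holds the authors' own DESeq fold changes and p-values and was not used. The vehicle columns are named by group (Veh). The other 4 columns carry a numeric code and no group name, and were taken as IXA4 because it is the only other group of the series. Their replicate numbers are not the animal numbers of the labels, so columns were mapped to groups only; 0 columns had no group.

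Counts were filtered with filterByExpr (minimum count 10, minimum total 15), scaled with TMM and tested with edgeR 4.0.16 (R 4.3.3; quasi-likelihood test, robust estimation), IXA4 against vehicle, with no covariate and Benjamini-Hochberg adjustment over all 12427 genes tested (threshold 0.05). The authors used DESeq; DESeq2 1.42.0, limma-voom (limma 3.58.1), other scalings and filters, and fits without each liver were the alternatives. The code was tested on simulated data. CPM and RPKM were computed from the counts, the latter with GENCODE exon lengths. Depth was 16986915 to 18390185 counts a library.

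The members and lists were chosen with earlier results of these data known, and the motifs with the sequences in view. Genes named are all members; in each list of related genes, the genes past the threshold and the most abundant one that did not pass; the 3 genes nearest in pattern to *G6pc*, *Pck1* and *Foxo1*; and the check genes. Exceptions are marked where they occur, and marker genes past the threshold were outside this rule and are named after their values were seen. For the steps shared with glycolysis, the most abundant gene is not reported here. Summed marker levels were also computed for pericentral hepatocytes, Kupffer cells, mesothelial cells and pancreas. The pericentral sum was 23240 to 27770 CPM in IXA4 livers and 22070 to 27110 CPM in vehicle livers. Of these 7 markers 1 was higher with edgeR (*Cyp2c29*), and 2 were higher at an unadjusted p under 0.05. The Kupffer cell sum was 141.5 to 236.4 CPM in IXA4 livers and 135.5 to 284.8 CPM in vehicle livers. Of these 7 markers 0 were called by edgeR and 0 moved at an unadjusted p under 0.05. The mesothelial sum was 7.94 to 33.6 CPM in IXA4 livers and 6.45 to 19.8 CPM in vehicle livers, with 1 of 5 higher (*Upk1b*). The pancreas sum was 3.95 to 6.33 CPM in IXA4 livers and 4.90 to 6.56 CPM in vehicle livers.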

Additional observations from a re-analysis of the deposited data

Results flagged for a closer look

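Of 36 sets of 4 livers checked (1 gene in 1 group each), 2 held a liver that stood apart from the other 3 by Dixon's criterion, where chance gives about 1 in 20. *Crtc2* was at 32.28 CPM in vehicle liver 2, against 38.53 to 39.4 CPM in the other vehicle livers. *Lcn2* was at 147.6 CPM in vehicle liver 4, against 32.24 to 38.62 CPM in the other vehicle livers.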

How the results depend on the processing

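*Foxo1*, *Ppargc1a* and *Gpd1* kept their direction and call in all 15 alternatives; 2 or 3 members were called lower and 0 higher in each, the third being *G6pc* or *Foxo3*. Over all genes, 452 were higher and 123 lower; DESeq2 called 256 lower, and fits without 1 liver gave 261 to 613 higher and 43 to 162 lower, with the fewest in each direction without vehicle liver 1. In the related lists, 2 genes were higher and 1 lower with edgeR; DESeq2 gave 4 higher and 6 lower, no filter gave 2 lower, and fits without 1 liver gave 0 to 6 higher (0 without vehicle liver 2, 6 without IXA4 liver 2) and 1 to 3 lower (3 without IXA4 liver 2, IXA4 liver 3 or vehicle liver 3). The log2 fold changes of 3 members near 0 changed sign: *Crtc2* was 0.0026 with at least 10 counts in every library and −0.0728 to 0.0298 without 1 liver (above 0 without IXA4 liver 2 or vehicle liver 1, 3 or 4), *Pck2* was −0.078 to 0.4135 (below 0 without IXA4 liver 2 or vehicle liver 3) and *Slc37a4* −0.0238 to 0.1248 (below 0 without vehicle liver 1). The causes were not tested. No paired analysis was possible because the columns carry no animal numbers and the labels of the groups share only 1 number. With 4 livers a group and *Pck2* at 16 to 56 counts, small changes of low genes may have gone undetected. The smallest detectable change was not estimated.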
